A study of Sparassis latifolia with 15 samples.

Results

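U10 (Gglean005727) is the gene that the study describes as the precursor of fruiting body protein SC4, and it is 1 of 11204 gene IDs in the deposited RNA-seq tables of *Sparassis latifolia*, an edible brown rot fungus. It was taken by its ID from both RNA-seq tables, and its promoter peak was taken from the lists of differential ATAC-seq peaks by the peak name that the study assigns to it. Strain SP-C was grown in cultivation bags, and all samples come from this strain. Group D was mycelium that had grown in darkness for 28 d, group L was such dark-grown mycelium that then received white light for 1 h, and group P was primordia, which formed while the bags stood for 2 further weeks under a daily cycle of light and dark. The sample labels put D at day 28, P at day 42 and L at day 30, so that labels and methods differ for the age of L. Primordia therefore differed from dark mycelium in age as well as in light and form, and these cannot be told apart. Each group had 3 biological replicates in RNA-seq and 2 in ATAC-seq. The study placed U10 among 17 up-regulated genes (codes U1 to U17) because its RNA and a peak near it were higher in both L and P than in D. Values of L vs. D and P vs. D below therefore describe the gene and its replicate spread. They are not independent evidence of its direction. P vs. L was not used for that choice. The study also measured the selected genes by qRT-PCR and reports patterns similar to those from sequencing for most of them. U10 is not among the exceptions that it names, whereas U14 is. The qRT-PCR values were not used here, and the study does not state whether they came from the same RNA.

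SC4 belongs to the hydrophobins, which are small secreted fungal proteins with a conserved pattern of cysteines. Hydrophobins assemble at the border between water and air into films that are wettable on one face and repel water on the other, and such films coat aerial hyphae and the surfaces of fruiting bodies. In *Schizophyllum commune*, SC4 is made by the dikaryon and lines the air channels inside fruiting bodies. The name of U10 rests on the description given by the study, since the tables hold IDs without descriptions and 0 of the 11204 IDs had a match in the gene table used here for names, made from a different strain. No other gene could therefore be named as a hydrophobin, markers of mycelium or primordia could not be checked, and reads that U10 may share with close family members cannot be told apart from its own.

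The libraries held 20798190 to 27706995 reads assigned to genes. The spread between replicates was summarized by the first axis of the deviations from the group means. It was computed over 10700 genes without U10 and held 53.4% of the variance within groups. The lowest scores were -0.18 in dark replicate 2, -0.31 in light replicate 1 and -0.41 in primordia replicate 3. The highest were 0.20 in dark replicate 3, 0.39 in light replicate 2 and 0.53 in primordia replicate 2. The sign of the axis is arbitrary. These 3 libraries of highest score thus mark an end of a wide spread and were not shown to be outliers. The comparisons of U10 are given with and without these libraries. Primordia replicate 2, at 0.53, had the highest score of all libraries. For this library the study also lists the lowest share of mapped reads among its RNA-seq libraries. Whether that share bears on the U10 level of the library was not tested.

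In dark mycelium, U10 had 1284, 951 and 5599 reads in replicates 1 to 3. These counts were 63.1, 35.2 and 231 CPM, where CPM are reads per 1000000 after scaling of the library totals by TMM. Dark replicate 3 thus held the most U10 RNA of its group, at 6.57 times the level of replicate 2. After 1 h of light, U10 had 10298, 143964 and 57777 reads in replicates 1 to 3. The levels were 368, 5105 and 2293 CPM, so that light replicate 1 was low and light replicate 2 was high, 13.9-fold apart. In primordia, U10 had 35159, 354203 and 39388 reads. The levels were 1686, 14884 and 1673 CPM, and primordia replicates 1 and 3 were close to each other whereas replicate 2 was 8.89 times as high as the lowest. The mean level was 110 ± 106 CPM in dark mycelium, 2589 ± 2382 CPM under light and, in primordia, 6081 ± 7623 CPM (SD, n = 3 in each). The SD was close to the mean or above it in every group, and the medians of 63.1, 2293 and 1686 CPM put L above P, unlike the means. The 3 D libraries lay below all L and all P libraries, and L and P overlapped.

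**Figure D1:**
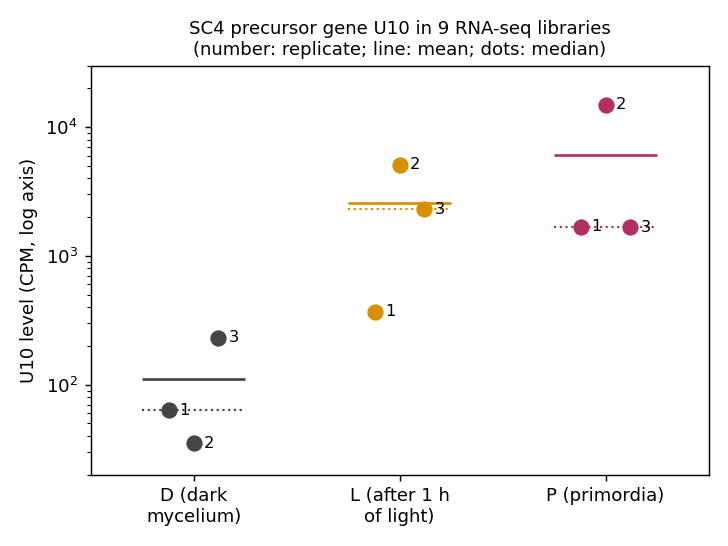
U10 level in CPM (log axis) in each RNA-seq library of D, L and P, with replicate numbers beside the points, a line at the mean and dots at the median of 3 libraries. The D libraries lie between 35.2 and 231 CPM, the L libraries between 368 and 5105 CPM, and 2 of the 3 P libraries lie at 1673 and 1686 CPM while primordia replicate 2 reaches 14884 CPM.

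As a share of all reads counted in genes, U10 held from 0.00343% to 0.0218% of dark libraries, from 0.0389% to 0.554% of light libraries and from 0.169% to 1.5% of primordia libraries. In primordia replicate 2 this single gene thus took 1.5% of the library. The tissue was measured in bulk, so more cells that express U10 and more U10 RNA per cell cannot be told apart. No source used here states whether reads were counted by strand, so a gene on the opposite strand cannot be separated from U10.

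The first comparison sets mycelium that had received 1 h of light against dark mycelium. By the sample labels these groups also differed in age, at day 30 and day 28, which cannot be told apart from the light. U10 stood 23.6-fold higher in L than in D (log2 fold change 4.56, SE 1.16, 95% interval 1.81 to 7.31). The difference did not pass the test across all genes (adjusted p = 0.235, edgeR with Benjamini-Hochberg adjustment over 10627 genes), where a call required a fold change over 1.2 and an adjusted p no higher than 0.05. By this rule 0% of all genes were called higher and 0% were called lower, although 683 genes, U10 among them, were higher at an unadjusted p under 0.05. Every L library exceeded every D library, the lowest L library at 1.59 times the highest D library, and 9.58% of all genes tested were separated in this direction and 9.41% in the other. DESeq2, which the study itself used with the same thresholds, called U10 higher (adjusted p = 4.8e-05), in a test that called 404 genes. The fold change of U10 ranked 6 of 10627 genes, whereas its p ranked 262. Without dark replicate 3 and light replicate 2, a repeat chosen after seeing the data, the log2 fold change was 4.76 (adjusted p = 0.463 from edgeR). Leaving out each library in turn gave log2 fold changes of 3.6 to 5.72 and no call, with the lowest value without light replicate 2 and the highest without dark replicate 3.

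The comparison of primordia with dark mycelium asks which genes differed after the new structure had formed. U10 was 57.0-fold higher in P than in D (log2 fold change 5.83, SE 1.31, 95% interval 2.78 to 8.88). Its adjusted p was 0.0615 (edgeR with Benjamini-Hochberg adjustment over 10606 genes), above the threshold that 1.33% of all genes passed as higher and 1.97% as lower in primordia. Both comparisons with D share the same 3 dark libraries. The lowest P library stood at 7.25 times the highest D library, and 13.1% of all genes were separated in this direction and 12.5% in the other. DESeq2 gave a log2 fold change of 5.81 and no p for U10, because Cook's distance, its measure of how far 1 library moves a gene's fit, was 19.9 in primordia replicate 2, over the limit of 18 that DESeq2 applies. With that limit switched off, a repeat chosen after the data were seen, DESeq2 called U10 higher (adjusted p = 0.00031). Without primordia replicate 2, the log2 fold change fell to 3.94 and U10 was called (adjusted p = 0.0334 from edgeR), in a fit in which the number of called genes rose from 350 to 727. Without dark replicate 3 and primordia replicate 2 together, it was 5.09 and also called (adjusted p = 0.0140 from edgeR). This repeat was also chosen after the data were seen, and the libraries left out were those with the most U10 RNA in their groups.

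For primordia against mycelium after 1 h of light, all 9 libraries entered the fit. U10 was 2.35-fold higher in P than in L (log2 fold change 1.23, SE 1.16), with an edgeR adjusted p of 0.785 over 10701 genes, while 0.0187% of all genes were called in each direction (4 genes in all, and 1 with the replicate number as a block). The 95% interval ran from -1.38 to 3.85 on the log2 scale, that is from 0.384-fold to 14.4-fold, a range that holds both a fall and a large further rise. A P library was above an L library in 5 of the 9 possible pairs, whereas P lay wholly above L for 6.75% of genes and wholly below it for 6.01%, and an exact permutation test of the log2 levels gave p = 0.60 (two-sided, n = 3 per group, where the smallest possible p is 0.10). The direction rested on primordia replicate 2: without it the log2 fold change was -0.63 (adjusted p = 0.757 from edgeR), and without light replicate 2 it was 2.19 (adjusted p = 0.679 from edgeR). Without both of these libraries and dark replicate 3 it was 0.34 (adjusted p = 0.861 from edgeR). By mean level U10 was lowest in D and highest in P. Neither L nor P passed the edgeR test against D, and the difference between L and P did not exceed the spread between their replicates.

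**Figure D2:**
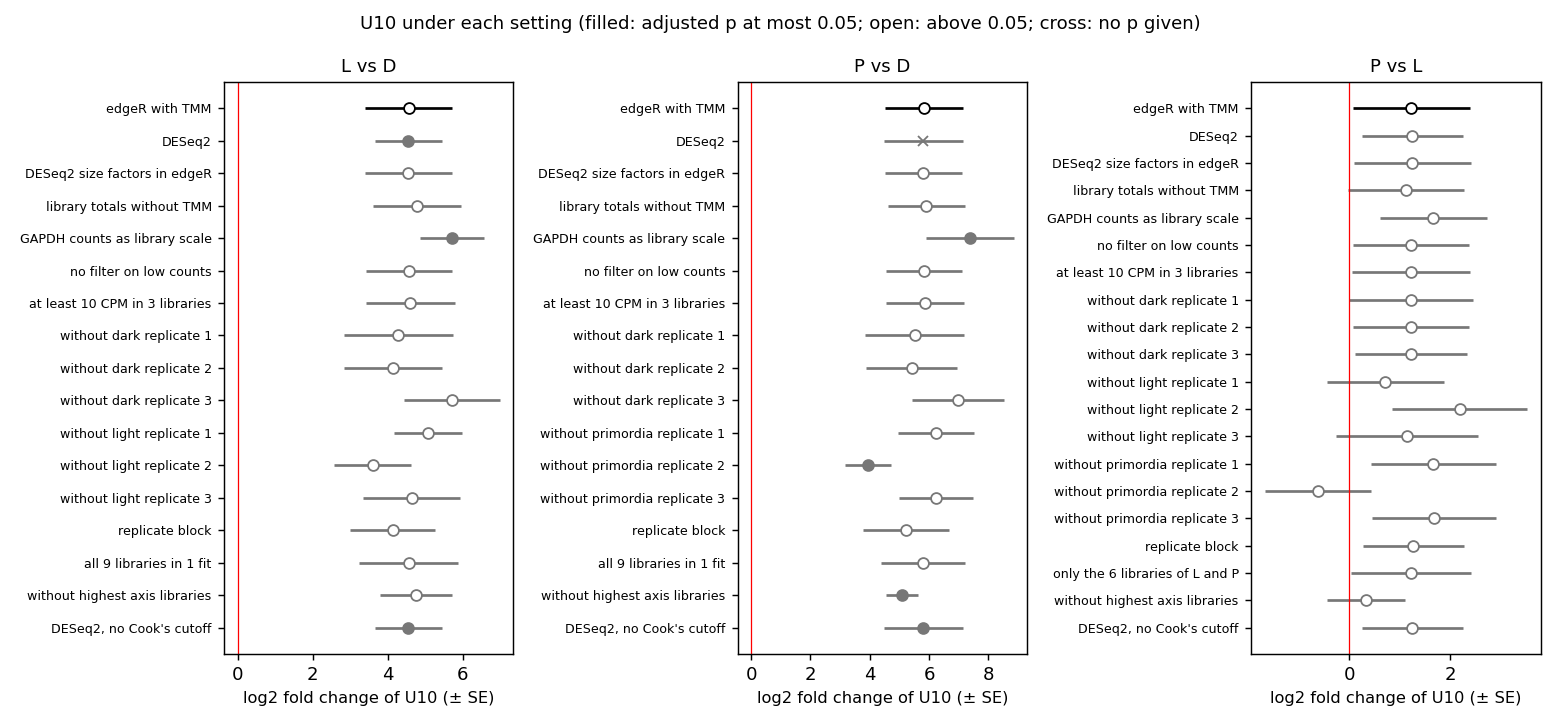
Log2 fold change of U10 with its SE in L vs. D, P vs. D and P vs. L under each setting of the analysis, where filled points have an adjusted p of at most 0.05, open points a higher one, and the cross marks DESeq2 without a p. All values of L vs. D (3.6 to 5.72) and P vs. D (3.94 to 7.39) are above 0, whereas P vs. L is -0.63 without primordia replicate 2.

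The spread of U10 between replicates was among the widest of all genes. Its SD within groups was 1.73 on the log2(CPM + 1) scale, against a median of 0.34 over 10701 genes, and 99.6% of genes had a smaller one. In edgeR, the biological coefficient of variation of U10 was 0.80 in the fit of L and D, against a trend of 0.39 at its expression level. It was 0.84 against 0.49 for P and D, and 0.89 against 0.47 over all 9 libraries. Among the 30 genes that the study selected, 17 up-regulated and 13 down-regulated, 0 had a larger SD within groups than U10, and U8, a phospholipid methyltransferase, came next at 1.56. A large fold change with a wide spread gave U10 a different rank by size than by test. Among the 17 U genes, its log2 fold change ranked 2 for light against D, 3 for primordia against D and 9 for primordia against light. Its p ranked 11, 12 and 12, and its SE was the largest in each.

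**Figure D3:**
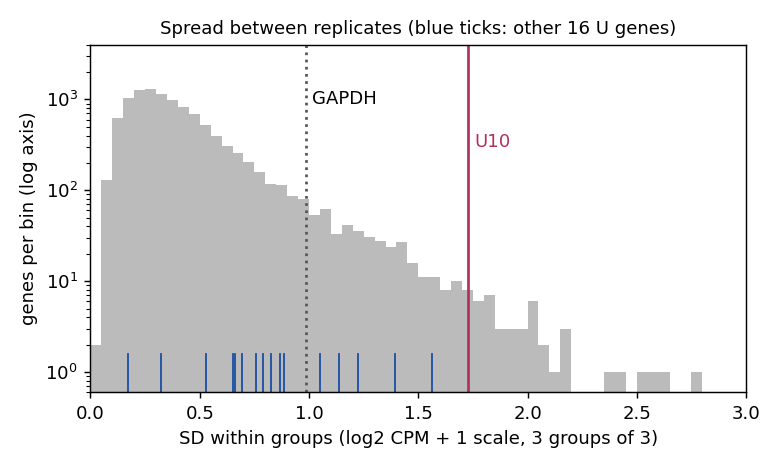
Number of genes (log axis) by SD within groups on the log2(CPM + 1) scale for 10701 genes, with lines for U10 and for GAPDH, glyceraldehyde-3-phosphate dehydrogenase, and blue ticks for the other 16 U genes. U10 at 1.73 lies far to the right of the median of 0.34, and GAPDH at 0.99 lies above 95.7% of genes.

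The deviations of U10 from its group means largely followed the first axis within groups. On the log2(CPM + 1) scale U10 lay 1.51 above the mean of its group in dark replicate 3, 1.65 above it in light replicate 2 and 2.1 above it in primordia replicate 2. It was lowest at -1.17 in dark replicate 2, -2.14 in light replicate 1 and -1.05 in primordia replicate 3. Primordia replicate 1 was nearly as low at -1.04, although its axis score was only -0.12. In light replicate 3, with a score of -0.08, U10 lay 0.49 above the mean of its group. The axis was computed without U10, and the weight of U10 on it ranked 1 of 10701 genes. This weight grows with the spread of a gene, which was wide for U10. Along this axis lay 84.3% of the variance of U10 within groups, against a median of 44.7% over all genes. By this share U10 was less extreme, as 87.8% of genes had a lower one and the others did not. GAPDH, the glycolytic enzyme that served the study as reference gene in qRT-PCR, moved the other way. Its CPM were 3361, 2506 and 2069 in the dark replicates, 2864, 821 and 1819 in the light replicates and 4374, 647 and 2250 in the primordia replicates. GAPDH was thus lowest in the same 3 libraries in which U10 was highest. Between groups, GAPDH had a log2 fold change of -0.53 for light (edgeR adjusted p = 0.711) and -0.12 for primordia (edgeR adjusted p = 0.950), each against D. Scaling the libraries to GAPDH counts in place of TMM raised the log2 fold change of U10 against D to 5.72 for light and 7.39 for primordia, and U10 was then called in both (adjusted p = 2.1e-08 and 0.00041 from edgeR). This scaling moved the median of all genes to 0.86 and 0.96, and U10 lay 4.86 and 6.42 above that median. It also widened the spread between replicates in each group. Per GAPDH read, U10 had 0.0188, 0.0140 and 0.112 reads in the dark replicates and 0.129, 6.22 and 1.26 in the light replicates. In the primordia replicates it had 0.385, 23.0 and 0.744. The lowest light library was thus close to the highest dark library, and the lower p does not reflect closer replicates. The part of the axis in the levels of U10 was not tested.

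**Figure D4:**
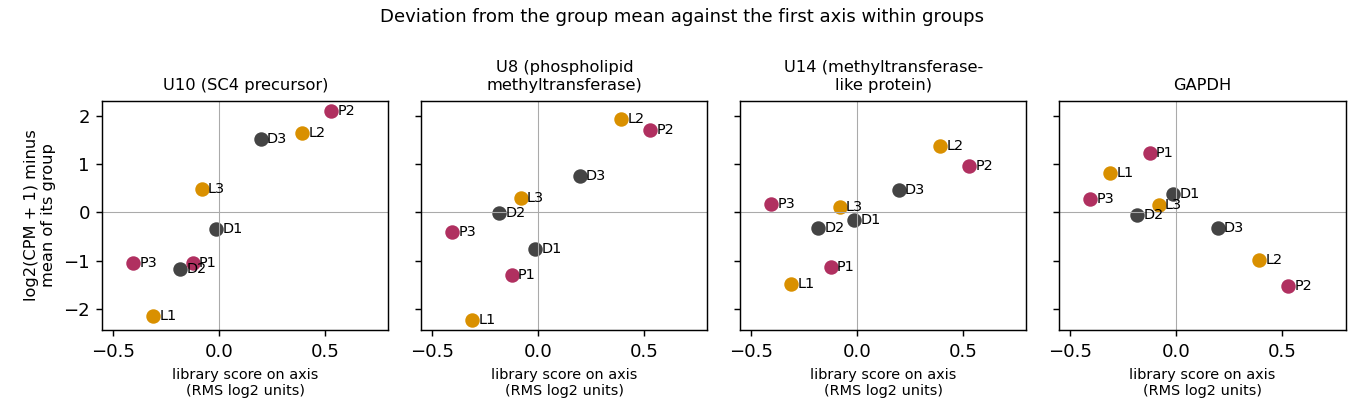
Deviation of U10, U8, U14 and GAPDH from the mean of their group on the log2(CPM + 1) scale against the score of each library on the first axis within groups, for the D, L and P libraries. U10 is highest and GAPDH lowest of their groups in D3, L2 and P2, which have the highest scores of 0.20, 0.39 and 0.53.

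Other genes were ranked by how closely they followed U10 over the 9 libraries. The measure was the root-mean-square difference of log2(CPM + 1), each gene centred on its own mean, and its median over 10700 genes was 2.73. A gene of constant level would also differ by 2.73, the root-mean-square of U10 around its own mean. A small difference thus requires a large rise from D. The closest gene was U8 (Gglean003319), a phospholipid methyltransferase, a class of enzyme that adds methyl groups to membrane lipids, at a difference of 0.81. Its D libraries stood at 1.47, 3.14 and 6.02 CPM, its L libraries at 9.44, 184 and 58.6 CPM, and its P libraries at 25.7, 213 and 48.3 CPM. U8 was thus low in light replicate 1 and high in light replicate 2 and primordia replicate 2, as U10 was. The next was Gglean012353, for which the files give no description, at a difference of 0.87, whose mean level was 18.9 ± 10.9 CPM in dark mycelium, 238 ± 177 CPM under light and 514 ± 189 CPM in primordia (SD, n = 3 in each). U14 (Gglean008871), a putative methyltransferase-like protein, ranked 3 at a difference of 0.94, and U5 (Gglean002890), a hypothetical protein, ranked 6 at 1.0. From D over L to P, the mean CPM of U14 were 118 ± 36.4, 1245 ± 1052 and 3622 ± 2298, and those of U5 were 2.45 ± 0.097, 152 ± 88.3 and 239 ± 165. In edgeR, U8, U14 and U5 were called higher in P vs. D (adjusted p = 0.0398, 0.0129 and 0.0042), where 1.33% of all genes were. Like U10, these genes were chosen by the study as higher in both L and P than in D. Their calls and their closeness to U10 are therefore not independent evidence for these genes. Their adjusted p in L vs. D, where 0 genes were called by edgeR, were 0.218, 0.186 and 0.0546. U8, U10, U14 and U7 were the U genes that peaked within each group in the library of highest axis score, 4 of 17. Of all genes, 17.3% shared this order. By the means of the 3 groups alone, without the replicates, the closest gene was Gglean005779 at a difference of 0.12, and U5 followed as the closest of the U genes at rank 3.

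In the chromatin data, the peak that the study assigns to the promoter of U10 was gained in both comparisons. ATAC-seq marks open chromatin through a transposase that inserts adapters into accessible DNA, and the lists hold the position of each differential peak and a score without a stated unit, but no value per library. How far the 2 ATAC-seq replicates differed at a peak can therefore not be given. In L vs. D, the peak lay on contig 28 of the SP-C assembly from 271896 to 274372, a width of 2477 bp. In P vs. D, the gained peak at this place lay from 271790 to 274544, a width of 2755 bp. The second peak covered 100% of the first and reached 106 bp and 172 bp beyond its ends, so that 89.9% of the P vs. D peak was shared. The study's annotation calls the peak of L vs. D a promoter peak, and the peak of P vs. D was matched to it here by overlap. Neither peak overlapped a lost peak (0 of either comparison). The gene model of U10 was not used here, so the strand and the exons of the gene relative to the peak are not given.

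Within L vs. D the promoter peak of U10 was among the widest gained peaks. It was wider than 98.3% of the 234 gained peaks, whose median width was 328 bp, and its score ranked 22 of 234. In P vs. D its width exceeded that of 86.3% of the 1768 gained peaks, whose median width was 1319 bp, and its score ranked 398 of 1768. Of the gained peaks of L vs. D, 77 (32.9%) overlapped a gained peak of P vs. D, and 73 (4.13%) of the gained peaks of P vs. D overlapped one of L vs. D. At a reciprocal overlap of 50% these were 39 (16.7%) and 39 (2.21%), and the pair of peaks at U10 met this stricter rule.

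Within 100 kb of the centre of the promoter peak, L vs. D had 2 gained and 0 lost peaks, and P vs. D had 16 gained and 7 lost peaks, the promoter peak included. The whole of contig 28 had 5 gained and 0 lost peaks in L vs. D, and 33 gained and 12 lost peaks in P vs. D, while the full lists of P vs. D held 1768 gained and 1912 lost peaks. The other gained peak of L vs. D spanned 167 bp from 254447 to 254613 and did not overlap a gained peak of P vs. D. The nearest gained peaks of P vs. D lay 5.83 kb to one side and 26.2 kb to the other, and the nearest lost peak, from 281465 to 282137, lay 7.09 kb away. Of the 7 lost peaks, 5 lay on the side of lower coordinates. Of the 15 further gained peaks of P vs. D, 5 lay on that side and 10 on the other. The gained peak of P vs. D from 353937 to 358561, with its centre 83.1 kb from that of the promoter peak, ranked 6 of 1768 by score. Which genes these peaks belong to is not given here.

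The study annotates promoter peaks of L vs. D for 5 of the 17 U genes, U10, U12, U13, U14 and U15, and all 5 genes have a gained peak in both comparisons by the way they were chosen. U10 had the widest of these peaks in L vs. D, at 2477 bp against 1179 bp for U12, 1251 bp for U13, 204 bp for U14 and 1284 bp for U15. The P vs. D peak was 1.11 times as wide as the L vs. D peak for U10, 1.07 times for U13, 1.87 times for U12, 2.57 times for U14 and 2.64 times for U15. The shared part was 89.9% of the P vs. D peak for U10 and 88.9% for U13. It was 53.6% for U12, 32.9% for U15 and 19.8% for U14, so the ratios need not describe the same peak. By score, U13 ranked 3 and U15 ranked 5 of 234 in L vs. D, ahead of U12 at 21, U10 at 22 and U14 at 51. In RNA, U10 had the largest log2 fold change of the 5 genes in both comparisons, at 4.56 and 5.83. U14 followed at 3.40 and 4.96, whereas U15, the white collar 1 protein, a blue-light receptor, had 1.59 and 2.86. U13, a hypothetical protein, had 3.18 and 3.45, and U12, a protein with a LON peptidase N-terminal domain and a RING finger, had 1.03 and 4.14. U13, U14 and U15 were called higher in P vs. D (adjusted p = 0.0050, 0.0129 and 0.0433 from edgeR), and U10 and U12 were not (adjusted p = 0.0615 and 0.0774 from edgeR). All 5 genes were chosen by the study for higher RNA in this comparison too. U10 and U12 also had the 2 largest SDs within groups of these 5 genes, 1.73 and 1.39, against 0.79 to 1.05 for the others.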

How the data were processed

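RNA-seq was used from 9 libraries (3 each of D, L and P) and ATAC-seq from 4 lists of differential peaks. The deposited RNA-seq tables hold raw read counts per gene, for which the authors trimmed reads with cutadapt, aligned them with STAR and counted them with HTSeq 0.6.1. Columns with counts scaled by size factors and with the authors' own fold changes and p-values were not used. The deposited peak lists hold the authors' score for each peak, without a stated unit, after mapping with BWA 0.7.10, merging of the samples of a group and peak calling with MACS2 2.1.1. No shift of read ends or removal of duplicates is named.

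Counts were tested with edgeR 4.0.16 (quasi-likelihood test, filterByExpr, TMM) on D and L, on D and P, and for P vs. L on all 9 libraries, with Benjamini-Hochberg adjustment. Depth was 20798190 to 27706995 counts per library. SEs were derived as the log2 fold change divided by the square root of F, and 95% intervals from them. They carry no evidence beyond the p. Alternatives were DESeq2 1.42.0, other scalings and filters, left-out libraries and the replicate number as a block, and, for the peak lists, a minimum score of 5, a 50% reciprocal overlap and a window of 50 kb. The main fits used no pairing, and the labels state none. Deviations of equal-numbered L and P libraries correlated by 0.15, 0.53 and 0.36 across genes. Unequal numbers of L and P gave -0.50 to 0.39, and dark replicate 3 with light replicate 2 gave 0.64. Replicate numbers were therefore not shown to mark pairs. Scripts were tested on simulated data. Python 3.11.15 and R 4.3.3 were used.

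Named genes are U10, the other genes of the study's list and GAPDH, and the 2 IDs closest to U10. Gglean005779 was named after its values were seen. The gene, lists and tests were chosen with earlier results of these data known. Sequences of U10 are not given here.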

Additional observations from a re-analysis of the deposited data

How the results depend on the processing

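In L vs. D the direction of U10 was kept in all 16 alternatives and the lack of a call in 13. It was called by DESeq2 (log2 fold change 4.55), by DESeq2 without its limit on Cook's distance (4.55, added after seeing the data) and with GAPDH counts as the scale (5.72). In P vs. D the direction was kept in all 15 alternatives that gave a p. U10 was called in 4 of them, namely with GAPDH counts (7.39), without primordia replicate 2, without the highest library of each group on the axis (5.09, added after seeing the data) and by DESeq2 without its limit on Cook's distance (5.81, added). DESeq2 with its limit gave no p. In P vs. L, 18 of 19 alternatives kept the direction, and U10 was called in none (0). Log2 fold changes with 1 library left out were 3.6 to 5.72 in L vs. D, 3.94 to 6.97 in P vs. D and -0.63 to 2.19 in P vs. L. Library totals without TMM moved the median of all genes to 0.23 for light and 0.17 for primordia, each against D, and U10 lay 4.55 and 5.73 above it.

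The number of called genes depended on the setting. In L vs. D it was 0, but 404 by DESeq2 (405 without the limit on Cook's distance), 128 with GAPDH counts, 3 with library totals, 2 without a filter, 3 with the stricter filter, 2 with all 9 libraries and 0 to 15 with 1 library left out. In P vs. D it was 350, but 1158 by DESeq2 (1168 without the limit), 106 with GAPDH counts (84 higher and 22 lower, against 141 and 209) and 73 (without dark replicate 1) to 727 (without primordia replicate 2) with 1 library left out. In P vs. L it was 4, but 321 by DESeq2 (322 without the limit), 8 with library totals, 2 with the stricter filter, 0 with the 6 libraries of L and P, 2 without the highest libraries on the axis and 0 to 52 (without primordia replicate 2) with 1 library left out. The cause was not tested.

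With the replicate number as a block, the log2 fold change of U10 was 4.14 in L vs. D (adjusted p = 0.398 from edgeR), 5.22 in P vs. D (adjusted p = 0.221) and 1.27 in P vs. L (adjusted p = 0.759), and 0, 89 and 1 genes were called. The labels do not say that equal numbers mark a shared batch. Between D and the other groups, the deviations of equal-numbered libraries correlated from -0.40 to 0.36 across genes. With so few libraries per group, these values cannot decide whether equal numbers pair D with L or P. No call of U10 changed with the block.

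The promoter peak of U10 stayed in both lists of gained peaks at a score of at least 5 and at a reciprocal overlap of 50%. A window of 50 kb held 8 gained and 2 lost peaks in P vs. D and 2 gained peaks in L vs. D. At a score of at least 5 the window of 100 kb held 16 gained and 3 lost peaks in P vs. D and 1 gained peak in L vs. D. The 2 closest genes to U10 were the same with a pseudocount of 0.1 (0.73 for U8), where U14 ranked 4 and U5 ranked 5, and both were different by group means (0.12). Each group had 3 libraries in RNA-seq, the peak lists hold no value per library, and the effect of depth was not tested.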

Other observations

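Of the 5 gained peaks of L vs. D on contig 28, 2 others also overlapped a gained peak of P vs. D. The peak from 120170 to 120890 overlapped that from 120147 to 120611, and the peak from 403163 to 403354 lay within that from 402333 to 403754. Both lay more than 100 kb from the promoter peak of U10, and they were not assigned to genes here.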
